A study of Mus with 6 samples.

Results

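The miR-344 family is a group of mouse microRNAs (miRNAs) made from a cluster of small genes on chromosome 7. Its members here are the names that begin with mmu-miR-344 in tables of read counts per mature miRNA, and 11 of the 1211 known miRNA names in those tables qualified. The members follow from their names, but the family was chosen by the measured difference of miR-344d-3p and miR-344d-3-5p between hypoxia and control. The values of the family in that comparison are therefore a description, and no p-value is given for them. Counts of members called there stand beside the share called among all miRNAs, and nothing is read from them.

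Small RNA was sequenced from adipocytes of wild-type (WT) C57BL/6 mice, in 3 control libraries and 3 libraries labelled chronic intermittent hypoxia (CIH), in which oxygen drops and recovers in cycles, as it does in sleep apnoea. The labels carry no age and no length of exposure, and do not say whether animals or cultured cells were exposed or whether the libraries came from separate animals. Any spread between them may therefore be technical. Each label also has a library number from 1 to 3, and the libraries numbered 3 stood apart from the other 4.

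A miRNA gene is transcribed as part of a longer RNA, cut to a hairpin and then to a short duplex. One strand of it, named 5p or 3p after its side of the hairpin, is usually kept in the Argonaute complex, where it lowers the output of messenger RNAs that match its seed. Letters after the family number (as in miR-344b-3p and miR-344c-3p) mark related but different mature sequences, and a further number (as in miR-344d-3-5p) marks one of several gene copies. The miR-344 family is best known from the nervous system. A member of the family has also been reported to hold back the differentiation of a mouse preadipocyte line by targeting Gsk3b, a kinase of Wnt signalling.

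The RefSeq annotation of GRCm38.p6 holds 13 Mir344 genes, all on chromosome 7, from the start of Mir344d-1 at 61683124 to the end of Mir344i at 62085310, a span of 402 kb. Of these, 10 genes match the 11 names. Mir344e, Mir344h-1 and Mir344h-2 matched none of the names analysed here. Mir344d-1 (61683124 to 61683192) and Mir344d-2 (61685272 to 61685351) lie before the long non-coding RNA gene A230057D06Rik, which spans 61705850 to 61927574. Mir344d-3 (61726249 to 61726328), Mir344b (61790519 to 61790581), Mir344c (61837311 to 61837402) and Mir344 (61877770 to 61877864) lie within that span. Mir344-2, Mir344g, Mir344f and Mir344i follow after it. The window of 1 Mb on either side holds 0 other miRNA genes. It holds 6 protein-coding genes, among them Ndn, Magel2 and Mkrn3, paternally expressed genes of the region that corresponds to the human Prader-Willi locus. Ndn starts 263 kb beyond Mir344i.

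**Figure D1:**
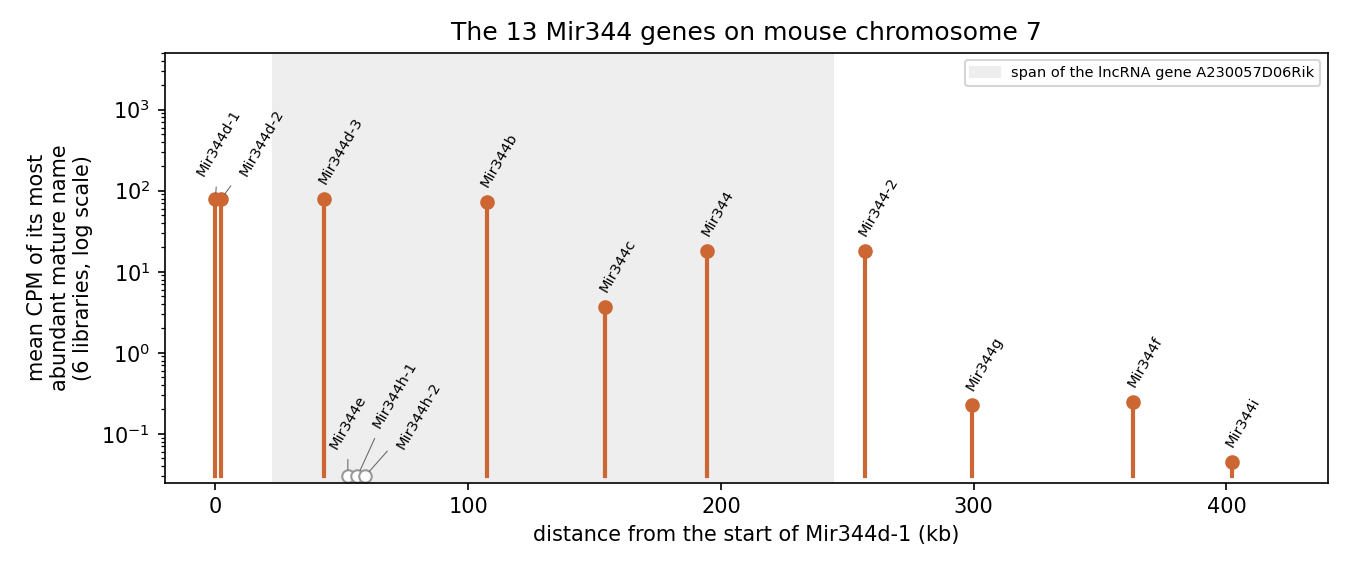
The 13 Mir344 genes by distance in kb from the start of Mir344d-1 (horizontal axis), with the mean CPM (counts per library total, scaled alike in each) of each gene's most abundant mature name on a log axis; for Mir344i the mean is over the 2 libraries that list it. Genes that share a mature name (the 3 Mir344d copies, and Mir344 with Mir344-2) show the same value, open circles mark genes with no matching name, and the shaded band is the span of A230057D06Rik.

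The genes of the 4 most abundant names lie between Mir344d-1 and Mir344-2, in the first 257 kb of the cluster. The name miR-344d-3p is shared by 3 gene copies and miR-344-3p by Mir344 and Mir344-2, so their reads cannot be assigned to 1 gene. How reads matching several related names were counted is not given in the sources used here. Among the 9 names that all 6 tables list, 0 pairs held identical counts.

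Total counts ran from 6291101 to 11264151 per library, so that 1 read was worth 0.0888 to 0.159 CPM. A count of 3, taken as the floor of detection, stood for 0.266 to 0.477 CPM. Floors and intervals cover counting error only, since the sources describe no molecular identifiers. The libraries numbered 1 and 2 list 1053 names and those numbered 3 list 1186. Across 456 miRNAs, which are not independent replicates, log2 CPM (TMM-scaled, 0.5 added) of the libraries numbered 1 and 2 correlated at r = 0.977 to 0.992 with each other, and at 0.918 to 0.933 with the libraries numbered 3. CIH library 3 and control library 3 correlated at 0.923. For this reason values are given by library number throughout, and 3 values given for a group stand in the order of libraries 1, 2 and 3.

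Of the adipocyte-enriched miRNAs chosen as a check of the label, all 8 were listed. Their summed level had a range of 226555 to 597961 CPM over the control libraries and 155061 to 318719 CPM over the CIH libraries, led by miR-148a-3p and miR-143-3p. The sum was lower in CIH than in control within each library number, and its part in the results below was not tested. In control library 3 miR-148a-3p alone stood at 493520 CPM. By library totals, miR-26b-5p and miR-335-5p were higher in CIH library 3 (2185 and 27.7 CPM) than in control library 3 (838 and 11.5 CPM). The rest of the list was lower there. None of the 8 is exclusive to adipocytes, and in bulk RNA fewer cells of a type cannot be told apart from less RNA per cell. Summed leukocyte miRNAs (miR-142a, miR-223 and miR-150, 4 names) stayed between 0.266 and 4.29 CPM in every library, and the 2 arms of endothelial miR-126a summed to between 33.8 and 137 CPM.

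The family as a whole was a small part of each library and differed most in the pair numbered 3. Its summed level was 139, 118 and 52.2 CPM in the control libraries, from 876, 1145 and 431 reads. In the CIH libraries it was 198, 157 and 386 CPM, from 1456, 1579 and 4344 reads. Every CIH library lay above every control library, with means of 247 ± 122 and 103 ± 45.4 CPM (SD, n = 3 each), a ratio of 2.40. By number, the ratio of CIH to control was 1.43, 1.33 and 7.39. Without miR-344d-3p the groups overlapped, at 96.0, 75.9 and 39.7 CPM in control and 63.0, 92.9 and 216 CPM in CIH. The ratios by number were then 0.656, 1.22 and 5.43.

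Which members were present differed widely. Only 4 names, miR-344d-3p, miR-344b-3p, miR-344-3p and miR-344c-3p, were above 3 counts in every library, and all are 3p strands. Together with miR-344d-3-5p they passed the filter on low counts (filterByExpr of edgeR), which left 5 members for the fits. miR-344d-3-5p passed through the CIH libraries alone, since 0 of the 3 control libraries reached the minimum of the filter, so it had to differ between the groups. miR-344f-3p had 13 reads in all, at 1, 3 and 3 in control and 1, 5 and 0 in the CIH libraries. miR-344g-3p also had 13 reads, 10 of them in CIH library 3. miR-344c-5p and miR-344g-5p had 1 read each over the 6 libraries. miR-344d-2-5p and miR-344i, listed in the libraries numbered 3 alone, had 1 read each there, in both cases in CIH library 3. At this depth these 4 names are at or under the floor in each library that lists them.

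miR-344d-3p, the 3p strand of the Mir344d copies, had each of its CIH libraries above each of its control libraries. Its full name in the files is mmu-miR-344d-3p. It stood at 43.2, 41.9 and 12.5 CPM in the control libraries, from 272, 407 and 103 reads. In the CIH libraries it stood at 135, 64.3 and 170 CPM, from 994, 646 and 1915 reads. CIH library 2 was the lowest of its group and still lay above the highest control, and control library 3 was far below the other controls.

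The CIH mean of miR-344d-3p was 3.79 times the control mean, but the size depended on the library number. The ratio within the pair numbered 1 was 3.13 (exact 95% counting interval 2.74 to 3.60). In the pair numbered 2 it was 1.54 (1.35 to 1.74), and in the pair numbered 3 it was 13.6 (11.2 to 16.8). The 3 counting intervals do not overlap, so the pairs differed by more than counting error. In rank among all listed names of its library, miR-344d-3p stood at 170, 168 and 199 in control and at 121, 146 and 119 in CIH.

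miR-344d-3-5p, the opposite strand of the third Mir344d copy, listed as mmu-miR-344d-3-5p, followed the same order at a far lower level. It had 0, 4 and 3 reads in the control libraries, which is 0, 0.412 and 0.363 CPM. In the CIH libraries it had 15, 13 and 82 reads, which is 2.04, 1.29 and 7.28 CPM. Each CIH library again lay above each control library, with CIH library 3 the highest by far.

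With so few control reads the size is imprecise. In the pair numbered 1, with 15 reads against 0, the lower bound of the exact 95% counting interval of the ratio was 3.08. CIH library 1 stood at 4.29 times the level of the floor of 3 counts in control library 1. The ratio in the pair numbered 2 was 3.15, with an exact 95% counting interval of 0.972 to 13.2 that includes no difference. In the pair numbered 3 it was 20.0 (6.62 to 99.2), and over the summed reads of each group, 110 against 7, it was 13.3 (6.25 to 33.9).

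**Figure D2:**
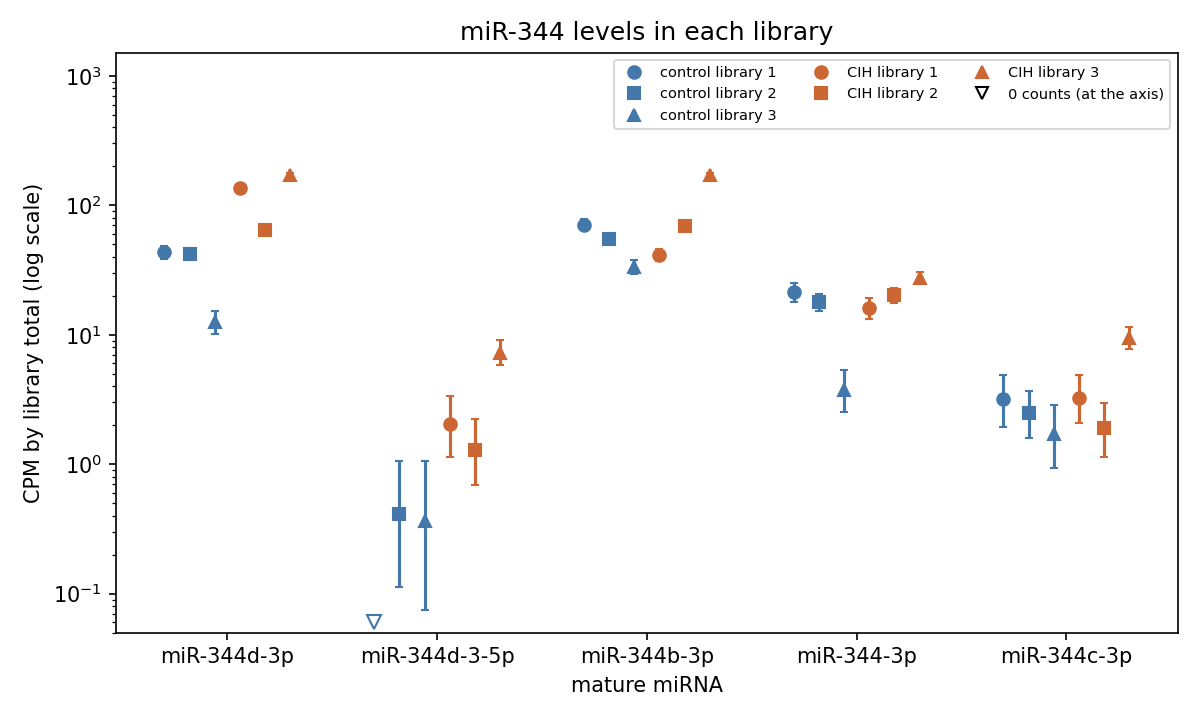
CPM by library total (log axis) of the 5 members that passed the filter, 1 point per library with its exact 95% Poisson interval; blue points are control, orange points are CIH, and circles, squares and triangles mark libraries 1, 2 and 3. miR-344d-3p and miR-344d-3-5p do not overlap between groups and are higher in CIH, while miR-344b-3p, miR-344-3p and miR-344c-3p overlap between groups and are highest in CIH library 3.

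The other members did not separate the groups. miR-344b-3p, the most abundant member in each control library, stood at 70.9, 54.8 and 33.5 CPM in the control libraries and at 41.3, 69.0 and 170 CPM in the CIH libraries. CIH library 1 was below 2 of the controls and CIH library 3 was above all libraries. Its ratio of CIH to control was 0.583 (0.502 to 0.676), 1.26 (1.12 to 1.41) and 5.08 (4.48 to 5.78) by number, each with its exact 95% counting interval. The direction therefore differed between the pairs numbered 1 and 2.

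miR-344-3p, from Mir344 and Mir344-2, stood at 21.3, 17.9 and 3.75 CPM in control and 16.1, 20.1 and 27.4 CPM in the CIH libraries. Control library 3 alone was low, and the libraries numbered 1 and 2 of both groups overlapped. The ratio by number was 0.755 (0.585 to 0.974), 1.12 (0.913 to 1.38) and 7.31 (5.04 to 10.9). Control library 3 was the lowest of all 6 and CIH library 3 the highest.

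miR-344c-3p was rare, at 3.18, 2.47 and 1.69 CPM in control and 3.27, 1.89 and 9.50 CPM in the CIH libraries. CIH library 3 was high, from 107 reads, and the other 5 libraries had 14 to 24 reads. The ratio by number was 1.03 (0.545 to 1.96), 0.766 (0.397 to 1.46) and 5.60 (3.20 to 10.6). At this depth no difference was detectable in the pairs numbered 1 and 2.

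The excess in the pair numbered 3 has to be read against all miRNAs there. By library totals the median of 456 tested miRNAs was itself higher in CIH library 3 than in control library 3, by 0.74 on the log2 scale (CPM + 0.5). Scaling by TMM, a method that takes most miRNAs as equal between libraries, brought that median to 0.05. It also reduced the log2 difference of miR-344d-3p in that pair from 3.72 to 2.93. On this scale all 5 members were more than 2-fold higher in CIH library 3, beside 23.7% of all miRNAs tested. The members' log2 differences there were 2.93 for miR-344d-3p, 2.72 for miR-344d-3-5p, 1.98 for miR-344-3p, 1.53 for miR-344b-3p and 1.52 for miR-344c-3p. With 1 library per group this pair has no spread of its own.

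The pairs numbered 1 and 2 gave smaller differences. On the same TMM scale miR-344d-3p differed by 1.70 and 0.84 (log2) and miR-344d-3-5p by 2.19 and 1.11. miR-344b-3p differed by -0.71 and 0.56, miR-344-3p by -0.33 and 0.39, and miR-344c-3p by 0.09 and -0.12. In the pair numbered 1 the counting interval of miR-344d-3p lay above those of these 3 members. In the pair numbered 2 it overlapped the intervals of all 3. More than 2-fold higher in CIH were 2 of the 5 members in the pair numbered 1, beside 9.21% of all miRNAs tested, and 1 of the 5 in the pair numbered 2, beside 4.61%. Among the log2 differences of 456 miRNAs, ordered from the highest, miR-344d-3p was at place 11, 35 and 15 in the pairs numbered 1, 2 and 3, and miR-344d-3-5p at place 2, 14 and 20. miR-344b-3p was at place 385, 64 and 57.

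**Figure D3:**
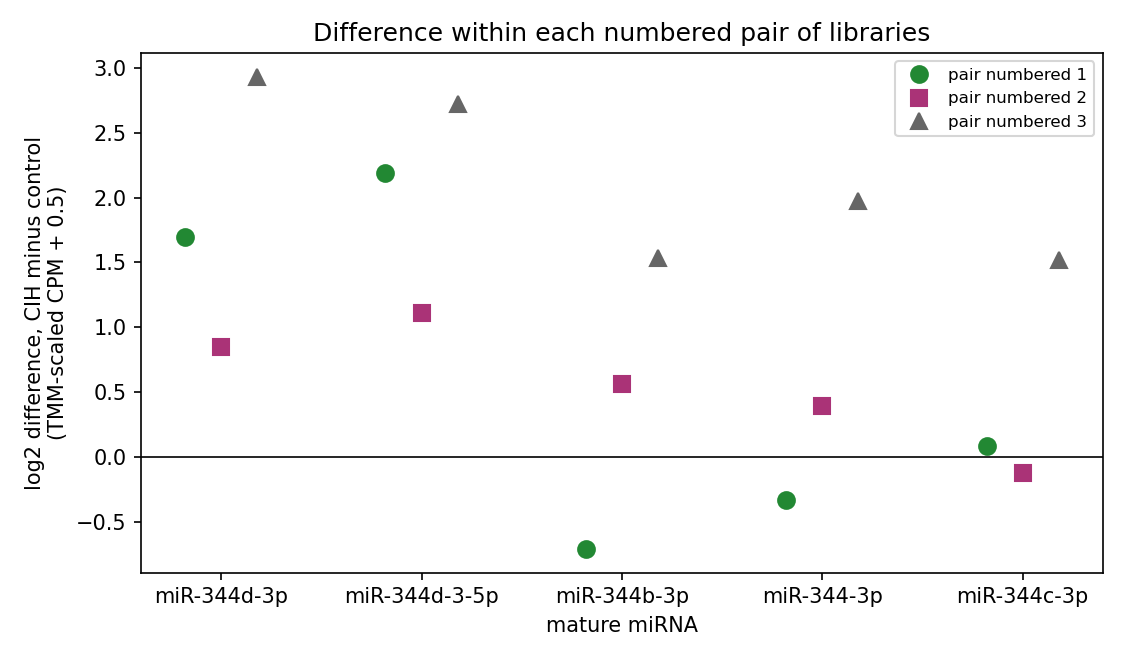
Log2 difference, CIH minus control, within each numbered pair of libraries (TMM-scaled CPM with 0.5 added) for the 5 members that passed the filter, 1 point per pair. Both Mir344d products are above 0 in all 3 pairs, whereas miR-344b-3p and miR-344-3p are below 0 in pair 1 and miR-344c-3p is below 0 in pair 2; the pair numbered 3 is highest for every member.

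In the fit across all miRNAs over the 6 libraries, the log2 difference, CIH minus control, was 1.86 (SE 0.51) for miR-344d-3p and 3.37 (SE 1.07) for miR-344d-3-5p, the latter from 7 control reads in all. It was 0.59 (SE 0.55) for miR-344-3p, 0.70 (SE 0.58) for miR-344b-3p and 0.83 (SE 0.65) for miR-344c-3p. The median of all 456 miRNAs was 0.04. edgeR's quasi-likelihood test called 0 of the 5 members at an adjusted p under 0.05, where 0% of all miRNAs were called, and 23 of 456 had an unadjusted p under 0.05. DESeq2 and limma-voom also called 0 of the 5, and 0 of all miRNAs tested. A count of 0 called here therefore does not show equal levels.

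The 4 libraries numbered 1 and 2 had less spread. There the log2 difference was 1.33 (SE 0.30) for miR-344d-3p and 2.80 (SE 1.07) for miR-344d-3-5p, against 0.06 (SE 0.34) for miR-344-3p, 0.01 (SE 0.32) for miR-344b-3p and -0.01 (SE 0.50) for miR-344c-3p. The test called 1 of the 5 members, miR-344d-3p, as higher, where 9.37% of the 459 miRNAs tested were called in either direction and 4.14% as higher. Since the family was picked with this contrast known, nothing is read from that count. Leaving out either control library leaves 1, which is assumed to vary like the CIH libraries, so those fits cannot settle the call. The log2 difference of miR-344d-3p was 1.28 without control library 1 and 1.44 without control library 2. Without CIH library 1 the log2 difference of miR-344d-3p was 0.88.

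The ranges of CPM in the 3 CIH and 3 control libraries did not overlap, with CIH higher, for 2 of the 5 members, miR-344d-3p and miR-344d-3-5p, beside 7.46% of all miRNAs tested. The same 2 members were higher in CIH in all 3 numbered pairs, as were 20.8% of all miRNAs tested. These counts too come from the contrast that led to the choice of the family, and 1 of the 2 members passed the filter through CIH alone, so nothing is read from them.

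Ratios between members of the same library need no scaling between libraries, so they show the make-up of the family directly. miR-344d-3p took 31.1%, 35.5% and 23.9% of the family's reads in the control libraries and 68.3%, 40.9% and 44.1% in the CIH libraries. The CIH shares were all above the control shares. miR-344b-3p took 50.9%, 46.6% and 64.3% in control and 20.8%, 43.9% and 44.2% in CIH, so that it was ahead of miR-344d-3p in each control library.

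In CIH the order of the 2 leading members was not fixed. miR-344d-3p made up 76.6% of the reads of these 2 names in CIH library 1 (exact 95% binomial interval 74.2% to 78.9%). In CIH library 2 it made up 48.2% (45.5% to 51.0%) and in CIH library 3 49.9% (48.4% to 51.5%), so that in those libraries the 2 names could not be told apart in level. In the control libraries the share was 37.9% (34.3% to 41.5%), 43.3% (40.1% to 46.5%) and 27.1% (22.7% to 31.9%). The intervals of control library 2 and CIH library 2 overlap, so the separation there is the narrowest of the 3 pairs.

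Against the same partner, miR-344-3p showed no such order by group. It made up 23.1%, 24.6% and 10.1% of the reads of miR-344-3p and miR-344b-3p in the control libraries, and 28.0%, 22.6% and 13.9% in the CIH libraries. Both libraries numbered 3 were low and the other 4 were between 22.6% and 28.0%. For miR-344c-3p the share beside miR-344b-3p was 4.29%, 4.31% and 4.81% in control and 7.34%, 2.67% and 5.28% in CIH, with groups that overlap. Levels of different miRNAs also reflect how well each is ligated and amplified, which is not known here.

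**Figure D4:**
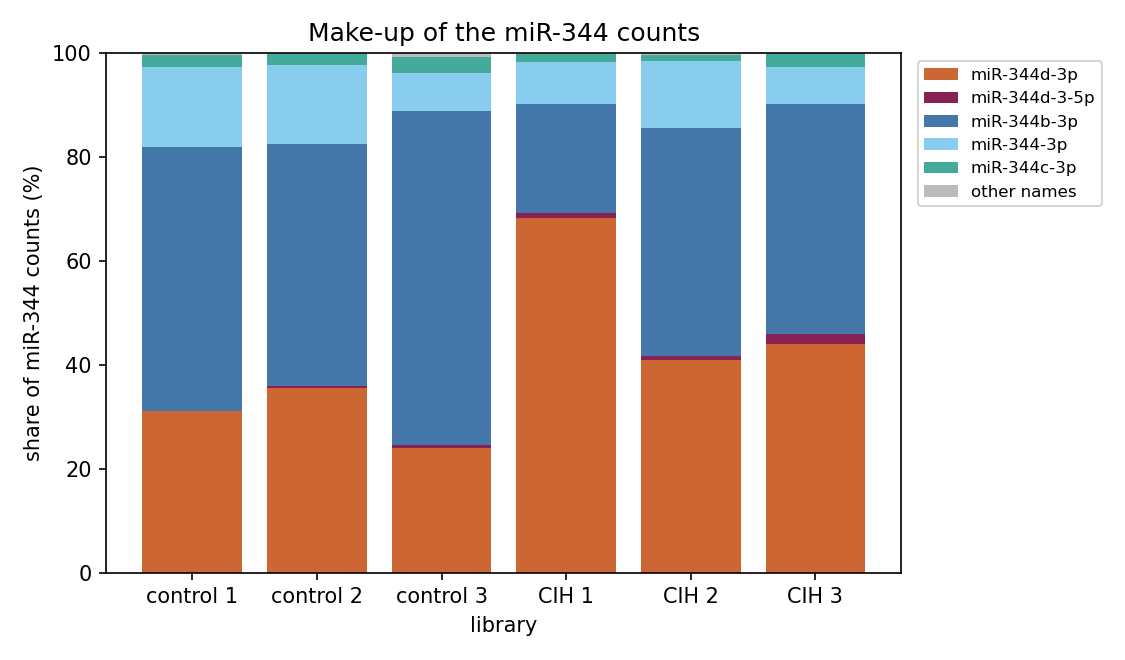
Share of all miR-344 reads (%) taken by each mature name in each library, stacked to the whole. miR-344d-3p takes 23.9% to 35.5% in the control libraries and 40.9% to 68.3% in the CIH libraries, and miR-344b-3p takes most of the rest.

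Among the listed names, 3p strands held most reads in every library. Mir344b, Mir344 and Mir344-2 have no 5p name among them, so the 5p strands of miR-344b and miR-344 were not counted. The 5p names held 1, 4 and 3 of the family's reads in the control libraries and 15, 14 and 83 in the CIH libraries. miR-344d-3-5p made up 0%, 0.973% and 2.83% of its reads summed with miR-344d-3p in control, where 0 of 272 reads allows up to 1.35% (exact interval). It made up 1.49% (0.834% to 2.44%), 1.97% (1.05% to 3.35%) and 4.11% (3.28% to 5.07%) in the CIH libraries. The control intervals reach up to 2.47% in library 2 and 8.05% in library 3, so within each library number the intervals of control and CIH overlap. Over the summed reads of each group the ratio of CIH to control was 13.3 (6.25 to 33.9) for miR-344d-3-5p. For miR-344d-3p it was 3.85 (3.56 to 4.17), and these intervals cover counting error only. The 3p name is shared by 3 gene copies, so these shares are not the strand use of 1 hairpin. A difference in strand use between the groups was not tested.

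Levels in the libraries numbered 3 against the other 4, a contrast that played no part in choosing the family, were tested with group in the model. edgeR's quasi-likelihood test called 0 of the 5 members, where 25% of 456 miRNAs were called and 177 had an unadjusted p under 0.05. limma-voom also called 0 members, where 121 of 456 miRNAs were called. miR-344d-3p differed by -0.01 (log2, SE 0.47, adjusted p = 0.990), miR-344-3p by -0.38 (SE 0.53, adjusted p = 0.628) and miR-344b-3p by 0.79 (SE 0.48, adjusted p = 0.266). miR-344c-3p differed by 1.09 (SE 0.50, adjusted p = 0.158) and miR-344d-3-5p by 1.86 (SE 0.69, adjusted p = 0.0935).

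These averages join a low control library 3 and a high CIH library 3. Leaving out either one leaves a single library on that side, which is then assumed to vary like the libraries numbered 1 and 2. Without control library 3 the count was 3 of 5, beside 52.3% of all miRNAs tested, with log2 differences of 1.51 for miR-344b-3p, 1.84 for miR-344c-3p and 2.07 for miR-344d-3-5p. Without CIH library 3 it was 1 of 5, beside 47.5%, with miR-344-3p at -1.44. DESeq2 over the 6 libraries called 1 of 5, miR-344d-3-5p at 2.04, beside 33.3%.

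The miRNAs whose profile over the 6 libraries was most like that of miR-344d-3p were not family members. Likeness was the root mean square difference between log2 profiles (CPM + 0.5), each centred on its own mean, among 451 miRNAs outside the family, where the median was 1.19. The closest was miR-222-3p at 0.42, followed by miR-34c-3p at 0.43, miR-155-5p and miR-221-3p at 0.50 each and miR-690 at 0.53. miR-221 and miR-222 act on p27, an inhibitor of the cell cycle, miR-34c belongs to a p53-responsive family, and miR-155 is induced in inflammatory signalling. miR-34c-3p, for example, stood at 13.0, 15.2 and 4.48 CPM in control and 20.9, 16.1 and 47.2 CPM in the CIH libraries. Among the family, miR-344-3p came at 0.73, miR-344d-3-5p and miR-344c-3p at 0.84 each and miR-344b-3p at 0.95. Set among the 451, these take places 34, 66, 67 and 111. The profiles use library totals without TMM scaling. For miR-344d-3-5p the 0.5 added exceeds each control value (0, 0.412 and 0.363 CPM), which flattens its profile, so its place is uncertain.

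Since the family is known from the nervous system, neuronal miRNAs were read beside it. All 13 names of a neuronal list were listed, though only 7 passed the filter over the 6 libraries. Their sum was 547, 316 and 220 CPM in control and 538, 361 and 215 CPM in the CIH libraries. It was led by miR-128-3p, which other tissues also express. miR-124-3p, the most neuron-specific of them, stood at 11.4, 3.70 and 0.847 CPM in control and at 4.36, 2.59 and 0 CPM in the CIH libraries. The part of these miRNAs in the results for the family was not tested. Of the 7 neuronal names tested over 6 libraries, 0 were called, beside 0% of all miRNAs. Of these 7, 1 had a log2 difference above 0, and the median was -0.53. In the libraries numbered 1 and 2, 9 were tested and 0 called, beside 9.37% of all miRNAs, with a median of -0.20.

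Other miRNAs that have, like that member, been reported to hold back adipocyte differentiation were taken as a list of 12. The list was chosen with earlier results of these data known, so its counts and p-values are a description. Over the 6 libraries 10 were tested and 0 were called, beside 0% of all miRNAs. The median log2 difference was 0.09, close to the 0.04 of all miRNAs. In the libraries numbered 1 and 2, 11 were tested. Of these, 3 were called as higher, beside 4.14% of all miRNAs, and 0 were called as lower. The log2 difference of miR-221-3p there was 1.18 (SE 0.21, edgeR adjusted p = 0.000216). That of miR-222-3p was 1.14 (SE 0.22, edgeR adjusted p = 0.000723). The third was miR-155-5p, with a log2 difference of 0.76 (SE 0.23, adjusted p = 0.0340). The median of the 11 was -0.20, beside -0.03 for all miRNAs. The other names tested had log2 differences below 0, from -0.70 (miR-31-5p) to -0.03 (miR-27b-3p), and were not called. miR-27a-3p, which targets the adipogenic factor PPAR gamma, had a log2 difference of -0.31 (SE 0.21).

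Of 4 miRNAs reported to act through Wnt signalling in fat cells, 2 were tested. This list too was chosen with earlier results of these data known, and miR-210-3p was named after its value was seen. Its counts and p-values are therefore a description. Over the 6 libraries 0 of the 2 were called, beside 0% of all miRNAs. In the libraries numbered 1 and 2 both were called as lower, beside 5.23% of all miRNAs. miR-148a-3p, which favours adipogenesis, had a log2 difference of -0.66 (SE 0.21, edgeR adjusted p = 0.0348). miR-210-3p, which HIF-1 switches on in low oxygen, had one of -1.75 (SE 0.24, edgeR adjusted p = 1.9e-05). By library totals, control library 3 had 43.0 CPM of it and CIH library 3 had 59.6 CPM, and TMM scaling turned this direction (log2 difference -0.33). miR-135a-5p and miR-709 were at 1.09 CPM or less in every library.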

How the data were processed

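The deposited tables, 1 per library, hold whole-number read counts per mature miRNA, taken as counts although 3 headers say FPKM. Tools listed in the submitters' processing notes are featureCounts 1.5.0-p3 and DESeq 1.8.3, with the build GRCm38. The treatment of reads matching several names, like the aligner and the miRBase release, was not given in the sources used here, and 0 columns of other samples were present. The 929 known names in both name lists were tested with edgeR 4.0.16 (quasi-likelihood, robust, TMM, filterByExpr) in R 4.3.3, with Benjamini-Hochberg adjustment at 0.05 and library totals from the whole files. DESeq2 1.42.0 and limma 3.58.1 (voom) were alternatives, with other scalings, filters, a threshold of 0.1, a replicate block and each library left out. CPM are counts over library totals. Python 3.11.15, scipy 1.17.1 and matplotlib 3.10.9 gave intervals and plots. Named were every member, the 5 nearest profiles and the lists' leading names. miR-210-3p, miR-27a-3p and the list members called were named after their values were seen. The members and lists were chosen with earlier results of these data known.

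Same-numbered libraries deviated together from their group means (r = 0.31, 0.35 and 0.40 across miRNAs). Control library 1 with CIH library 2 (0.40) and control library 2 with CIH library 1 (0.20) did so too. These values therefore do not single out pairs within the numbers 1 and 2. The numbers, taken from the labels, were treated as pairs in the block. Libraries of a group differed by more than counting noise (chi-square of at least 135 for each degree of freedom). Simulated counts with known changes were used to test each fit, and the fit over the 6 libraries missed most of the changes. All 11 names were matched to RefSeq genes of GRCm38.p6 by name. No mature sequences were used here, so seeds were not compared.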

Additional observations from a re-analysis of the deposited data

How the results depend on the processing

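Over 6 libraries the count of called members stayed 0 under all 15 alternatives, and the log2 difference of miR-344d-3p stayed between 1.58 (without CIH library 3) and 2.12 (without CIH library 2). In the libraries numbered 1 and 2 the count of 1 became 2 with limma-voom, where 35 of 459 miRNAs were called. It became 2 at a threshold of 0.1 as well, where 65 of 459 were called, and each change added miR-344d-3-5p. There the log2 difference of miR-344d-3p ran from 0.88 to 1.70 when a library was left out. Such a fit has 1 library in a group and cannot settle a call. For the libraries numbered 3 against the rest, the count of 0 became 1 with DESeq2, where 152 of 456 miRNAs were called. It became 1 at a threshold of 0.1 too, where 160 of 456 were called. Leaving out a library numbered 3 also moved the count, as given above. The cause was not tested. The log2 difference of miR-344d-3p in the pair numbered 3 was 3.72 with library totals alone against 2.93 with TMM, since totals leave the median of all miRNAs there at 0.74. The ratio of summed family CPM, 2.40, ran from 1.73 to 2.91 when a library was left out and was 2.25 after TMM scaling. With the replicate block the log2 difference of miR-344d-3p was 1.83 over 6 libraries and 1.28 in the libraries numbered 1 and 2. The members called were 0 and 1, so the pairing changed no call of a member. Among all 459 miRNAs tested in the libraries numbered 1 and 2, 48 were called with the block and 43 without it. The count of all miRNAs called in the libraries numbered 1 and 2, 43, was 16 with a minimum mean of 10 CPM, 65 at a threshold of 0.1, and 9 to 97 when a library was left out. For the libraries numbered 3 against the rest, 114 became 60 with library totals, and 2 to 253 when a library was left out. Read depth limits miR-344d-3-5p and the names below the floor.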
